A study of Mus musculus with 12 samples.

Results

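The 10 genes described here encode intracellular brakes on T cell signalling. They are the cytokine-signalling suppressors Cish, Socs1, Socs2 and Socs3, the tyrosine phosphatases Ptpn2 and Ptpn22, the E3 ubiquitin ligases Cblb and Rnf128, and the diacylglycerol kinases Dgka and Dgkz. They were picked by symbol from a table of 56941 genes. Each symbol occurred once, and all 10 passed the filter on low counts, which left 18657 genes for testing.

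The libraries came from wild type C57BL/6J mice bearing tumours of Panc02, a mouse pancreatic tumour cell line. The labels state that tumours were treated with an isotype control antibody or with anti-PD-1, an antibody that blocks the inhibitory receptor PD-1. From each, DAPI- CD45.2+ CD8+ cells were sorted as negative or positive for asGM1 (labelled asGM- and asGM+), a glycosphingolipid of the cell surface. The 4 groups were isotype asGM1-negative, isotype asGM1-positive, anti-PD-1 asGM1-negative and anti-PD-1 asGM1-positive cells, with 3 libraries each. No allele, transgene or gate on CD3 was named, and the labels give no mouse age, dose or day of harvest. The labels also leave unsaid whether the 3 libraries of a group are 3 mice, so the p-values here reflect library-to-library spread that may be technical. Bulk RNA was measured, so fewer cells of a type and less RNA per cell cannot be told apart.

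Each of these proteins limits a step between a receptor and the genes it controls. CIS (from Cish) and the SOCS proteins are made in response to cytokines through STAT transcription factors and then act back on the receptor or its JAK kinases, which closes a feedback loop. PTPN2 removes phosphate from JAKs, STATs and the T cell receptor kinases LCK and FYN, while PTPN22 acts on LCK and ZAP-70. CBL-B sets the need for costimulation, RNF128 (also called GRAIL) is known from anergic T cells, and the DGKα and DGKζ enzymes consume the diacylglycerol that activates RAS and protein kinase C. In CD8+ T cells, loss of several of these brakes is known to strengthen responses to tumours.

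Promoter sequences of 4 members are shown first, because the SOCS genes with a window (Cish, Socs1 and Socs3) are known STAT targets and Cblb had the largest rise with anti-PD-1. RefSeq windows of build GRCm38.p6 reach from 250 bases before to 50 after a start site, and 8 of the 10 members had at least 1, with 13 windows in all; Socs2 and Ptpn2 had none. The windows printed are chr9:107296409-107296708 on the plus strand (Cish), chr16:10785487-10785786 on the minus strand (Socs1), chr11:117969317-117969616 on the minus strand (Socs3) and chr16:52031299-52031598 on the plus strand (Cblb). Each runs 5′ to 3′ along the gene, and capitals mark matches to the STAT motif TTCNNNGAA.
Cish: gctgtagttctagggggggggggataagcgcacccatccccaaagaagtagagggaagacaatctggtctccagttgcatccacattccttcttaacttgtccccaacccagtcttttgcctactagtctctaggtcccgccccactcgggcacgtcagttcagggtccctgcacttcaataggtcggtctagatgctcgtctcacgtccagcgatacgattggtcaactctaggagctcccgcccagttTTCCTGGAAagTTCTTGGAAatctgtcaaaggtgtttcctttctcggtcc
Socs1: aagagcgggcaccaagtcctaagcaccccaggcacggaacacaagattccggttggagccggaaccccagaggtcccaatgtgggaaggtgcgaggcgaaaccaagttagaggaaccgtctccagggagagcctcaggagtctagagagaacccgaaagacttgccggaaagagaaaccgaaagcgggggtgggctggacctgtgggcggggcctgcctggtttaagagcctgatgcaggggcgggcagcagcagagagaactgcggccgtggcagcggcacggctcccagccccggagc
Socs3: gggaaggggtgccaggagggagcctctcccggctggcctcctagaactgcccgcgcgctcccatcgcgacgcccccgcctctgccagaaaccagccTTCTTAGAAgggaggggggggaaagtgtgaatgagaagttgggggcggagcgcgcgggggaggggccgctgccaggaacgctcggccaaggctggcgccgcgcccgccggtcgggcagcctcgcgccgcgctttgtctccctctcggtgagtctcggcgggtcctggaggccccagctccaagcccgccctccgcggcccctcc
Cblb: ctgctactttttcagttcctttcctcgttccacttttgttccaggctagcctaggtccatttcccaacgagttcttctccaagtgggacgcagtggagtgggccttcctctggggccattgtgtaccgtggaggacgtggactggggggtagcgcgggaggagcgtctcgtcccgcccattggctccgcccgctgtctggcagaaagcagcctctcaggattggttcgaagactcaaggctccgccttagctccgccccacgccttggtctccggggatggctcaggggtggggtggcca
The Cish window held 2 STAT matches, TTCCTGGAA beginning at the start site and TTCTTGGAA beginning 11 bases after it. The Socs3 window held 1, TTCTTAGAA, 154 bases before the start, and 1 of the 2 Ptpn22 windows held TTCTGGGAA, 232 bases before the start. The windows of Socs1, Cblb, Dgka, Dgkz and Rnf128 held no match, which says only that these letters are not in those windows. Of all 32851 RefSeq windows of 300 bases, 8.3% held the STAT motif on either strand (the motif is its own reverse complement). On both strands, the FOXO motif GTAAACA (3.65% of all windows) and the AP-1 motif TGACTCA (5.2%) matched no member window. The EGR motif GCGNGGGCG (5.55%) matched only in Socs3, as CGCCCCCGC 181 bases before the start. The short NFAT motif GGAAA (61.3%) was common, and it shared bases with both STAT matches of Cish. A match is a description of the sequence and not a measured binding site.

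All values below are CPM (counts per 1 M counts of the library after TMM scaling, edgeR's adjustment for composition), and since CPM is not corrected for gene length, levels are compared within a gene only. Under anti-PD-1 members changed in both directions. Opposite changes within a family came from Socs3, which passed in neither population alone, and Ptpn2, whose call in asGM1-positive cells was fragile. Cish and Socs1 were lower in both populations, and Ptpn22, Cblb and Dgka were higher in both. Dgkz and Rnf128 passed no test. Between asGM1-positive and asGM1-negative cells, none of the 10 members passed under isotype (1.31% of all genes tested passed) or under anti-PD-1 (1.58%).

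**Figure D1:**
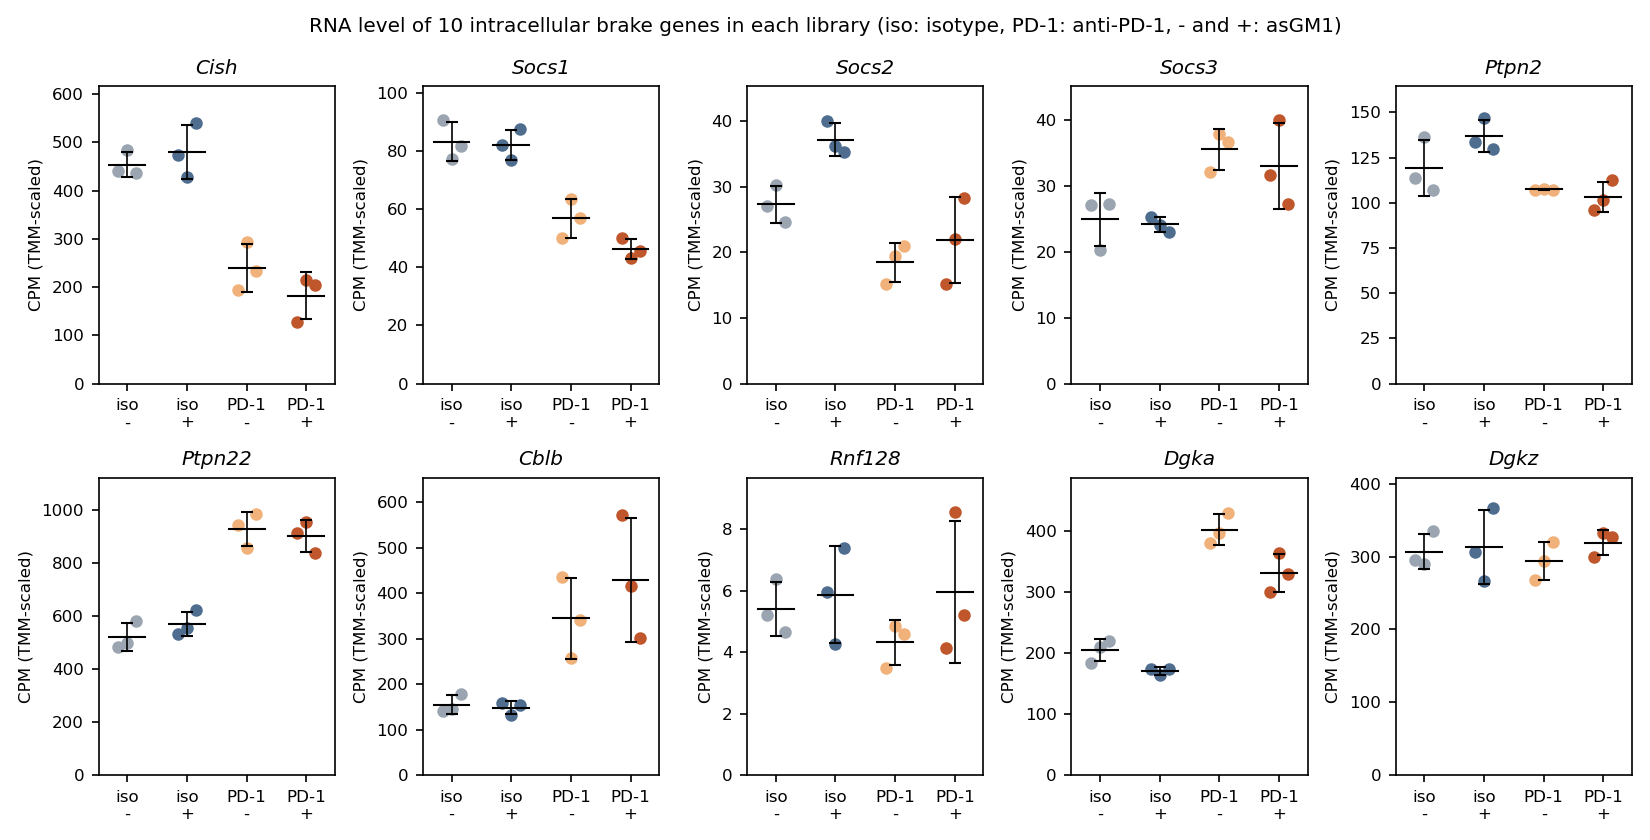
RNA level in CPM (vertical axes, from 0) of each of the 10 members in each of the 12 libraries, by group (points, libraries; lines, mean; bars, SD of 3 libraries). Cish ran from 428.7 to 540.4 CPM in the 6 isotype libraries and from 127 to 293 CPM in the 6 anti-PD-1 libraries, while Dgkz stayed between 266 and 366 CPM in all 12.

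Cish, the feedback inhibitor induced by STAT5 downstream of interleukin-2 and interleukin-15, gave 442, 484 and 436 CPM in asGM1-negative libraries under isotype, next to 473, 428.7 and 540.4 CPM in asGM1-positive ones (replicates 1, 2 and 3, in that order here and below). With anti-PD-1 it gave 193, 293 and 233 CPM (asGM1-negative) or 127, 216 and 204 CPM (asGM1-positive). All 6 anti-PD-1 libraries lay below all 6 isotype libraries, and the lowest was anti-PD-1 asGM1-positive replicate 1. Libraries of the same number within a treatment were taken as pairs, so here and below such 6 libraries are not 6 independent samples. Group means were 454 ± 26.0, 481 ± 56.2, 240 ± 50.2 and 182 ± 48.3 CPM (SD, n = 3 each). Cish fell by 0.92 ± 0.19 on the log2 scale (SE, edgeR's quasi-likelihood test, adjusted p = 0.0136) in asGM1-negative cells. In asGM1-positive cells it fell by 1.40 ± 0.20 (edgeR adjusted p = 0.00157). Leaving out replicate 1 (adjusted p = 0.0557) or replicate 3 (adjusted p = 0.0522) of the anti-PD-1 asGM1-negative libraries ended the call in asGM1-negative cells.

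Socs1, the inhibitor of JAK1, JAK2 and TYK2 that limits interferon-γ and common γ chain signals, gave 90.7, 77.4 and 81.7 CPM in asGM1-negative libraries under isotype, next to 81.9, 77.0 and 87.5 CPM in asGM1-positive ones. With anti-PD-1 the values were 50.1, 63.5 and 57.0 CPM (asGM1-negative) or 50.1, 43.1 and 45.8 CPM (asGM1-positive). The treatments did not overlap, with 77.0 to 90.7 CPM under isotype and 43.1 to 63.5 CPM with anti-PD-1. Socs1 fell by 0.55 ± 0.11 on the log2 scale (edgeR adjusted p = 0.00979) in asGM1-negative and by 0.83 ± 0.11 (adjusted p = 0.00101) in asGM1-positive cells. Both calls held in every alternative fit tried for these contrasts.

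Socs2, best known for restraining growth hormone receptor signalling, gave 27.01, 30.3 and 24.6 CPM in asGM1-negative libraries under isotype, next to 39.9, 36.2 and 35.3 CPM in asGM1-positive ones. With anti-PD-1 it gave 15.1, 19.4 and 20.9 CPM and 15.2, 22.0 and 28.3 CPM in the same order. The anti-PD-1 libraries were below the isotype libraries of their own population, with no overlap. In asGM1-positive cells Socs2 fell by 0.77 ± 0.20 on the log2 scale (edgeR adjusted p = 0.0421), and the change of -0.56 ± 0.20 in asGM1-negative cells missed the threshold (adjusted p = 0.112, 95% interval -1.001 to -0.13 before adjustment). The call in asGM1-positive cells was fragile: it was lost in 9 of the 12 fits that left out 1 library. Those were the fits without any one isotype asGM1-positive replicate (adjusted p 0.0648 to 0.112), without replicate 1 or 2 of the anti-PD-1 asGM1-positive libraries (0.122 and 0.116), without replicate 1 or 2 of the isotype asGM1-negative libraries (0.0583 and 0.0555), or without replicate 2 or 3 of the anti-PD-1 asGM1-negative libraries (0.0578 and 0.0561). It was also lost without the filter on low counts (0.0636) and in a fit of the 6 libraries compared (0.122). Averaged over both populations Socs2 fell by 0.66 ± 0.14 (adjusted p = 0.00734), a call lost when the counts of both populations were summed for each pair, the libraries of 1 number within a treatment (-0.66, adjusted p = 0.0637).

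Socs3, the inhibitor of gp130 (the interleukin-6 receptor chain) and of JAK-STAT3 signals, moved the other way. It gave 27.1, 20.3 and 27.3 CPM and 25.3, 24.1 and 23.0 CPM in isotype asGM1-negative and asGM1-positive libraries. With anti-PD-1 it gave 32.0, 37.8 and 36.7 CPM and 31.6, 40.0 and 27.2 CPM. The groups did not overlap within a population, although anti-PD-1 asGM1-positive replicate 3 sat beside the highest isotype libraries. The change of 0.51 ± 0.16 on the log2 scale in asGM1-negative cells (edgeR adjusted p = 0.0683, 95% interval 0.17 to 0.86) and of 0.45 ± 0.16 in asGM1-positive cells (adjusted p = 0.122, 95% interval 0.10 to 0.79) did not pass. Averaged over populations Socs3 rose by 0.48 ± 0.11 (adjusted p = 0.0115), a call lost without both replicate 2 libraries of the anti-PD-1 groups (0.37, adjusted p = 0.0607) and with counts summed for each pair (0.48, adjusted p = 0.0573). In those 2 libraries Hspa1a, an inducible heat shock gene nearly identical to Hspa1b, reached 151 and 146 CPM, while the 4 remaining anti-PD-1 libraries had 22.5 to 32.6 CPM. The sum over 12 heat shock genes did not set them apart (4285 and 4329 CPM, within the 3422 to 4337 CPM of the 4 remaining libraries). A link between Hspa1a and the Socs3 call was not tested.

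Ptpn22, a phosphatase that acts on the kinases next to the T cell receptor and whose coding variants are linked to autoimmunity, gave 481, 499 and 580 CPM in asGM1-negative libraries under isotype, next to 532, 555 and 621 CPM in asGM1-positive ones. The anti-PD-1 libraries gave 944, 857 and 985 CPM and 912, 956 and 836 CPM. All 6 anti-PD-1 libraries were above all 6 isotype libraries. Ptpn22 rose by 0.84 ± 0.10 on the log2 scale in asGM1-negative cells (edgeR adjusted p = 0.000812) and by 0.66 ± 0.10 in asGM1-positive cells (adjusted p = 0.00255).

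Ptpn2, the phosphatase of JAK1, JAK3 and several STATs, gave 114, 137 and 107 CPM in asGM1-negative libraries under isotype, next to 134, 147 and 129.9 CPM in asGM1-positive ones. In the anti-PD-1 groups it gave 107.3, 107.6 and 107.3 CPM and 96.0, 101 and 112 CPM. The asGM1-positive groups did not overlap, and the asGM1-negative groups did. Ptpn2 fell by 0.41 ± 0.10 on the log2 scale in asGM1-positive cells (edgeR adjusted p = 0.0356), while the change in asGM1-negative cells was -0.15 ± 0.10 (adjusted p = 0.432, 95% interval -0.37 to 0.07). The call was lost in 7 of 12 fits that left out 1 library: those without replicate 1 or 2 of isotype asGM1-positive cells (adjusted p = 0.0751 and 0.111), replicate 1 or 2 of asGM1-positive cells under anti-PD-1 (0.152 and 0.117), or any one of the asGM1-negative libraries under anti-PD-1 (0.0574, 0.0527 and 0.0634). It was also lost without the filter on low counts (0.0593) and in a fit of the 6 libraries compared (0.0954). Averaged over populations Ptpn2 fell by 0.28 ± 0.07 (adjusted p = 0.0209), lost without anti-PD-1 asGM1-positive replicate 1 (0.0505), replicate 2 (0.0509) or both replicate 2 libraries of the anti-PD-1 groups (0.0859), and with counts summed for each pair (0.139).

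Cblb, the ligase that raises the threshold for activation without costimulation, gave 142, 145 and 178 CPM in asGM1-negative libraries under isotype, next to 158, 132 and 154 CPM in asGM1-positive ones. After anti-PD-1 the level was 436, 258 and 341 CPM (asGM1-negative) or 573, 415 and 301 CPM (asGM1-positive). No isotype library reached the lowest anti-PD-1 library, and the spread was wider after treatment: the SD was 20.2 and 14.3 CPM in the isotype groups and 88.7 and 137 CPM in the anti-PD-1 groups. Cblb had the largest rise among the members, 1.15 ± 0.23 on the log2 scale in asGM1-negative cells (edgeR adjusted p = 0.00990) and 1.54 ± 0.23 in asGM1-positive cells (adjusted p = 0.00223). The library with the highest Cblb, anti-PD-1 asGM1-positive replicate 1, was also the one with the lowest Cish.

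Rnf128, the anergy-related ligase, had the lowest counts of the members, with 208 to 490 a library against 900 to 64343 for the others. It gave 5.21, 6.39 and 4.65 CPM and 5.97, 4.26 and 7.41 CPM in the isotype groups, and 3.50, 4.87 and 4.59 CPM and 4.13, 8.56 and 5.20 CPM in the anti-PD-1 groups. The 4 groups overlapped. Changes with anti-PD-1 were -0.33 ± 0.29 in asGM1-negative cells (edgeR adjusted p = 0.564, 95% interval -0.96 to 0.31) and 0.02 ± 0.29 in asGM1-positive cells (adjusted p = 0.986, 95% interval -0.61 to 0.65), so that a change of 1.5-fold either way lies inside the second interval.

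The diacylglycerol kinases parted. Dgka, the α enzyme that moves to the membrane on activation, gave 184, 210.4 and 219 CPM in asGM1-negative libraries under isotype, next to 174, 164 and 175 CPM in asGM1-positive ones. After anti-PD-1 it gave 381, 397 and 431 CPM and 301, 364 and 330.2 CPM. All 6 anti-PD-1 libraries were above all 6 isotype libraries, and in each treatment the asGM1-negative libraries were above the asGM1-positive ones. Dgka rose by 0.98 ± 0.10 on the log2 scale (edgeR adjusted p = 0.000343) in asGM1-negative and by 0.96 ± 0.10 (adjusted p = 0.000169) in asGM1-positive cells. Dgkz, the ζ enzyme that limits RAS signalling at the synapse, gave 296, 290.2 and 334 CPM and 307, 266 and 366 CPM in the isotype groups. The anti-PD-1 groups gave 268, 293 and 320.1 CPM and 299, 332 and 327 CPM. Its groups overlapped throughout. The average change of Dgkz with anti-PD-1 was -0.02 ± 0.08 (adjusted p = 0.919), and its 95% interval of -0.20 to 0.17 does not include the change seen for Dgka. The difference between both kinases was not tested.

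**Figure D2:**
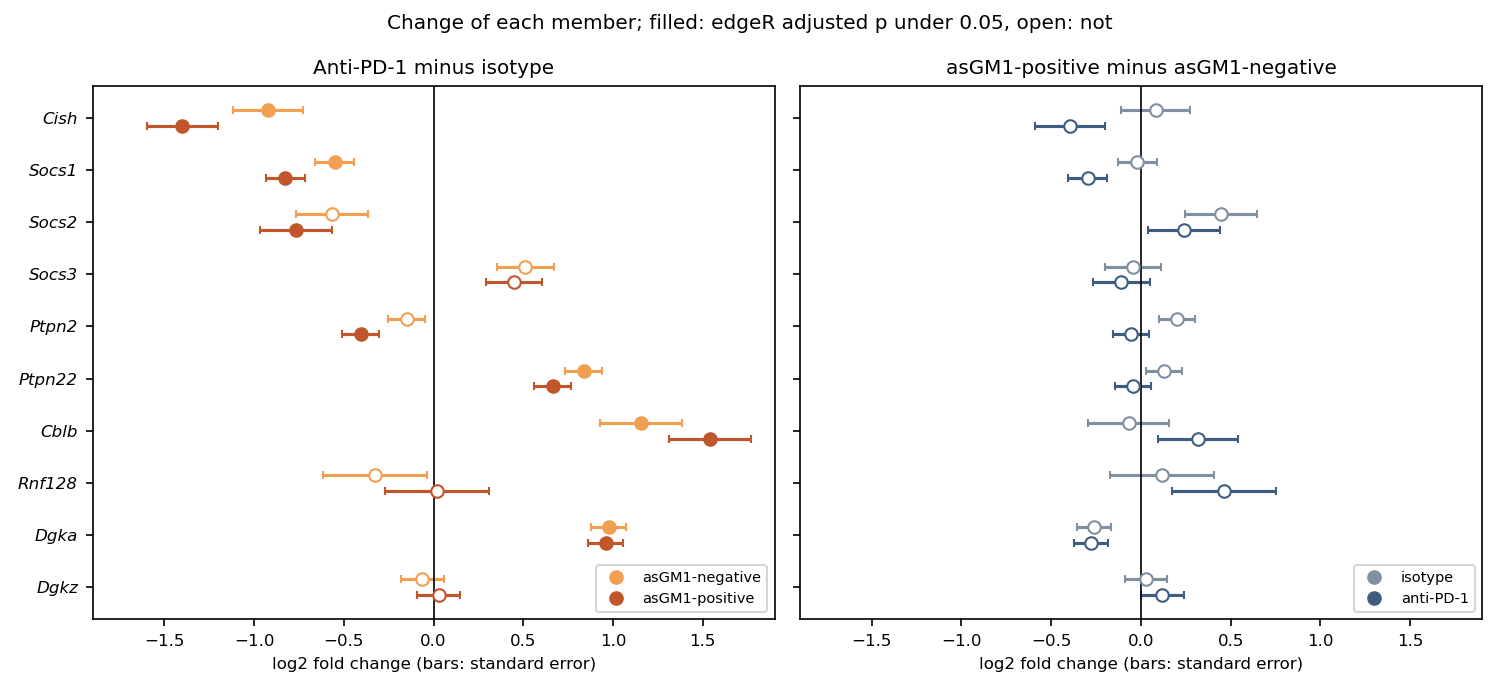
Log2 fold change (horizontal axes; bars, standard error) of each member with anti-PD-1 in each population (left) and between populations under each treatment (right), with filled points at an edgeR adjusted p under 0.05 and open points otherwise. Filled points appear on the left only: 5 in asGM1-negative cells, from -0.92 (Cish) to 1.15 (Cblb), and 7 in asGM1-positive cells, from -1.40 (Cish) to 1.54 (Cblb).

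In asGM1-negative cells 5 of 10 members passed with anti-PD-1, 3 higher and 2 lower, where 8.57% of all genes tested passed (4.11% higher, 4.45% lower). Groups did not overlap for 7 of 10 members, against 30.3% of all genes. In asGM1-positive cells 7 of 10 passed, 3 higher and 4 lower, against 6.73% of all genes (3.72% higher, 3.01% lower), and 8 of 10 did not overlap, against 24.0%. Averaged over populations 8 of 10 passed, 4 in each direction, against 18.1% of all genes (9.12% higher, 9.02% lower). That test counts both libraries of a pair as independent. With their counts summed, 3 sums against 3 in edgeR (a fit added after seeing the data), 5 of 10 passed (Cish, Socs1, Ptpn22, Cblb and Dgka), with 1349 of all 18657 genes. The averaged calls of Socs2, Socs3 and Ptpn2 were lost in that fit. Whether the pairing or the smaller number of samples ended them was not tested. Because members moved both ways, their median change was near 0, at -0.11, 0.02 and -0.08 on the log2 scale in the 3 contrasts, beside -0.01, -0.01 and -0.02 for all genes. Without both anti-PD-1 replicate 2 libraries, 5 members passed in asGM1-negative, 5 in asGM1-positive and 6 on average, with 828, 629 and 2170 of all 18657 genes. Cish, Socs1, Ptpn22, Cblb and Dgka were called in each. The calls for Socs1, Ptpn22, Cblb and Dgka held in every alternative fit of the 3 treatment contrasts.

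The responses of both populations to anti-PD-1 were compared through the interaction, the response of asGM1-positive cells minus that of asGM1-negative cells. No member passed in edgeR, DESeq2 or limma voom. Of all genes tested, 0% passed in edgeR, 0 in limma voom and 136 genes in DESeq2. At an unadjusted p under 0.05, edgeR counted 0 members and 7.12% of all genes. The difference was -0.48 ± 0.27 for Cish (95% interval -1.07 to 0.12), -0.28 ± 0.15 for Socs1 (-0.61 to 0.06), -0.26 ± 0.14 for Ptpn2 (-0.57 to 0.06) and 0.39 ± 0.32 for Cblb (-0.31 to 1.08). For Dgka it was -0.02 ± 0.14 (-0.32 to 0.28). The intervals for Cish and Cblb still hold differences as large as the response of some members, so these data do not show that the populations respond alike.

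Between populations, 0 of 10 members passed under isotype (1.31% of all genes passed) and 0 under anti-PD-1 (1.58%), by edgeR as by DESeq2 and limma voom. At an unadjusted p under 0.05, edgeR counted 2 members under isotype, against 12.5% of all genes, and 2 under anti-PD-1, against 11.3%. Under isotype the 2 were Socs2, 0.44 ± 0.20 on the log2 scale higher in asGM1-positive cells (adjusted p = 0.387), and Dgka, with a difference of -0.26 ± 0.10 (adjusted p = 0.274). Under anti-PD-1 they were Socs1, with -0.30 ± 0.11 (adjusted p = 0.283), and Dgka, with -0.28 ± 0.10 (adjusted p = 0.247). The same pairs were the members without overlap, 2 of 10 in each treatment, where 16.3% and 19.7% of all genes had none. Each share is near its background.

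Averaged over treatments, 0 members passed in edgeR, where 3.59% of all genes passed, and 2 had an unadjusted p under 0.05, against 16.2% of all genes. Dgka was nearest, with -0.27 ± 0.07 in asGM1-positive cells (adjusted p = 0.0529). With libraries of the same number within a treatment kept as a block, Dgka passed (-0.27, adjusted p = 0.0231), and Socs2 passed as well (0.33, adjusted p = 0.0435). Dgka also passed by DESeq2 (adjusted p = 0.00443) and limma voom (0.0456); Socs2 did not pass in any other fit of this contrast. Member medians were 0.06, -0.05 and 0.06 on the log2 scale under isotype, under anti-PD-1 and on average, beside 0.00, -0.01 and -0.01 for all genes. The treatment and population contrasts use the same 12 libraries and are not independent of each other.

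Genes around the SOCS proteins were followed with lists. List counts with anti-PD-1, here and below, stand beside 8.57% (asGM1-negative) and 6.73% (asGM1-positive) of all genes that passed. The median over all genes was -0.01 on the log2 scale in both populations. Of 11 JAK kinases and STAT factors, 2 rose with anti-PD-1 in asGM1-negative cells and 5 in asGM1-positive cells, with none lower and medians of 0.31 and 0.24 on the log2 scale. Stat3 rose by 0.84 ± 0.20 (edgeR adjusted p = 0.0222) and 1.20 ± 0.20 (adjusted p = 0.00406), from 689 to 1237 CPM and from 604 to 1389 CPM. Stat5b rose by 0.69 in both (adjusted p = 0.0105 and 0.0120). In asGM1-positive cells Stat5a (0.59), Stat4 (0.69) and Jak2 (0.58) rose as well. None of the 4 remaining SOCS genes (Socs4 to Socs7) passed in either population.

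Of 15 cytokine receptor chains, 5 were higher and 0 lower in asGM1-negative cells, and 4 were higher and 1 lower in asGM1-positive cells. Il12rb2, the inducible interleukin-12 receptor chain, rose by 1.52 and 1.69 on the log2 scale. Il7r, the interleukin-7 receptor chain, rose by 0.80 and 1.05, and Ifngr1, the interferon-γ receptor chain, by 0.91 and 0.78. Il6st, which encodes the gp130 chain bound by SOCS3, rose by 1.07 in asGM1-positive cells. The shared chain Il2rg fell by 0.52 there.

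Genes known as STAT5 targets, the group to which Cish itself belongs, split with most calls lower. Of 12, 2 rose and 6 fell in asGM1-negative cells and 2 rose and 4 fell in asGM1-positive cells, with medians of -0.57 and -0.56 on the log2 scale. The survival gene Bcl2 went from 164 to 34.1 CPM in asGM1-negative cells and from 177 to 39.1 CPM in asGM1-positive cells, and it fell by 2.26 ± 0.15 (edgeR adjusted p = 3.2e-05) in the former and fell by 2.18 ± 0.15 (adjusted p = 1.98e-05) in the latter. Lta, a tumour necrosis factor family cytokine, fell by 1.48 and by 2.01. The kinase gene Pim2 fell by 0.65 and by 1.22, while its relative Pim1 rose by 0.85 and 0.99. Bcl6, which STAT5 is known to repress, rose by 1.59 and 1.47. Il2ra, also on the list, did not pass (0.02 and 0.24, adjusted p = 0.918 and 0.0992). STAT5 activity was not measured, and its part in the change of Cish was not tested.

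**Figure D3:**
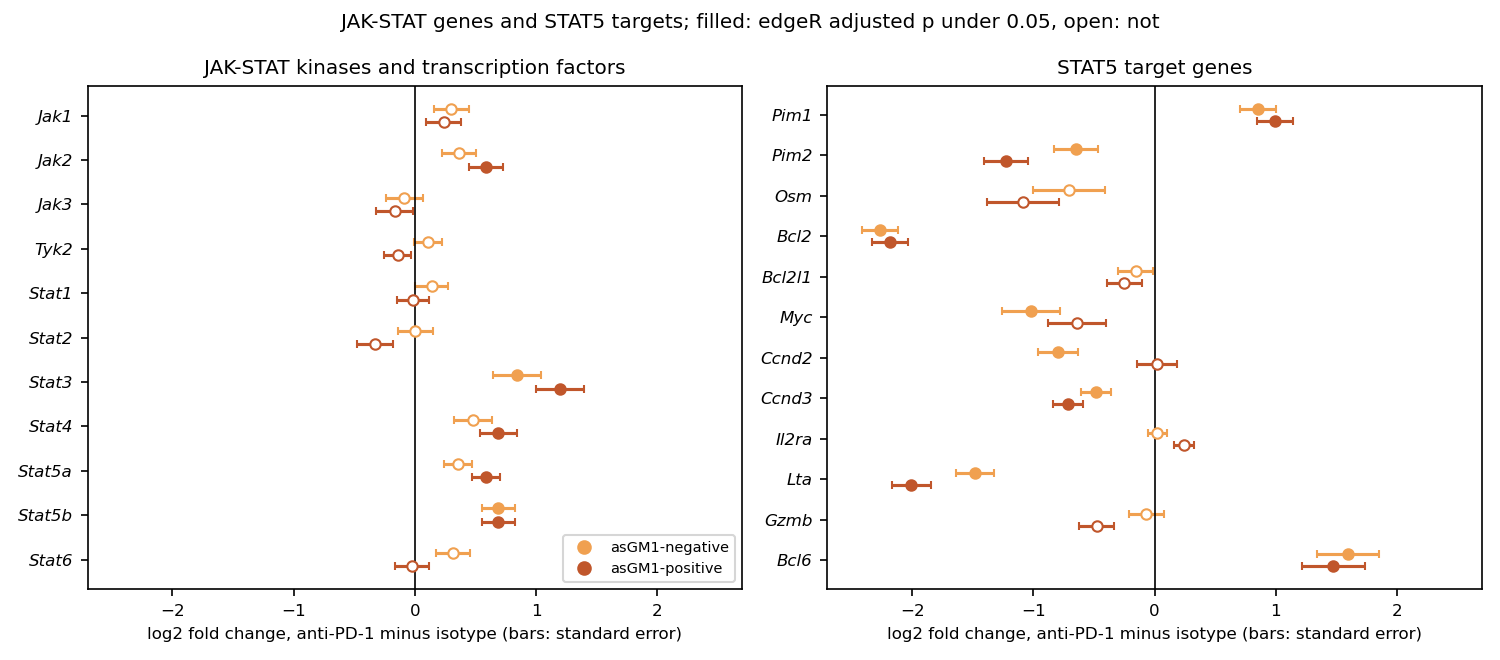
Log2 fold change with anti-PD-1 (horizontal axes; bars, standard error) of 11 JAK-STAT genes (left) and 12 STAT5 target genes (right) in asGM1-negative and asGM1-positive cells, with filled points at an edgeR adjusted p under 0.05. Filled points on the left are all above 0, with Stat3 highest in asGM1-positive cells at 1.20, and on the right Bcl2 lies farthest below 0, at -2.26 and -2.18.

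Among 15 other phosphatases, 0 rose and 2 fell in asGM1-negative cells, and 2 rose and 3 fell in asGM1-positive cells. Ptpn6 (SHP-1), which attenuates T cell receptor and cytokine receptor signals, fell by 1.06 ± 0.13 on the log2 scale (edgeR adjusted p = 0.000983) and by 1.51 ± 0.13 (adjusted p = 7.27e-05), opposite to Ptpn22. Its mean went from 1480 ± 159 to 712 ± 88.8 CPM (asGM1-negative) and from 2143 ± 135 to 754 ± 119 CPM (asGM1-positive) (SD, n = 3 each). Ptpn4 fell by 0.70 and by 0.83. In asGM1-positive cells Inpp4b fell by 0.80, and the 2 genes that rose there are not named. The list medians were 0.01 (asGM1-negative) and 0.07 (asGM1-positive).

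Among 16 other ubiquitin ligases and their regulators, 3 rose in asGM1-negative and 2 in asGM1-positive cells, with none lower. Rnf125 rose by 1.04 and 1.06 on the log2 scale, and Peli1, a ligase that restrains T cell activation, rose by 0.48 and 0.47. Cbl, Itch and Nedd4, the ligases most often named with CBL-B, were not among those that passed in either population. None of the 6 other diacylglycerol kinases tested (of 8 found) passed in either population, with list medians of 0.37 and 0.36 on the log2 scale. Averaged over populations, 2 of these 6 were higher and 0 lower, where 18.1% of all genes passed. Of 11 makers and sensors of diacylglycerol, 1 rose and 0 fell in each population, near the share of all genes. Plcg1 rose by 0.51 in asGM1-negative cells and Rasgrp2 by 1.02 in asGM1-positive cells. Averaged over populations 5 of the 11 were higher and 1 lower, against the same 18.1% of all genes.

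Of 18 further intracellular brakes, 4 rose and 2 fell in asGM1-negative cells, and 3 rose and 3 fell in asGM1-positive cells. Tnfaip3 (A20), an inhibitor of NF-κB signalling, rose by 1.36 ± 0.20 and 1.14 ± 0.20 on the log2 scale, Rasa3 by 1.28 and 1.48, and Sh2d2a by 0.88 and 0.86. The transmembrane adaptor gene Sit1 fell by 0.45 and by 0.73. Of 13 genes linked to anergy, 3 rose in each population. Nr4a1, an orphan nuclear receptor, rose by 1.28 and 1.32. Egr2 (-0.68 and -0.15) and Egr3 (-0.69 and -0.57), which are known to drive Cblb and DGK genes in anergy, did not pass. Their part in the changes of Cblb and Dgka was not tested.

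**Figure D4:**
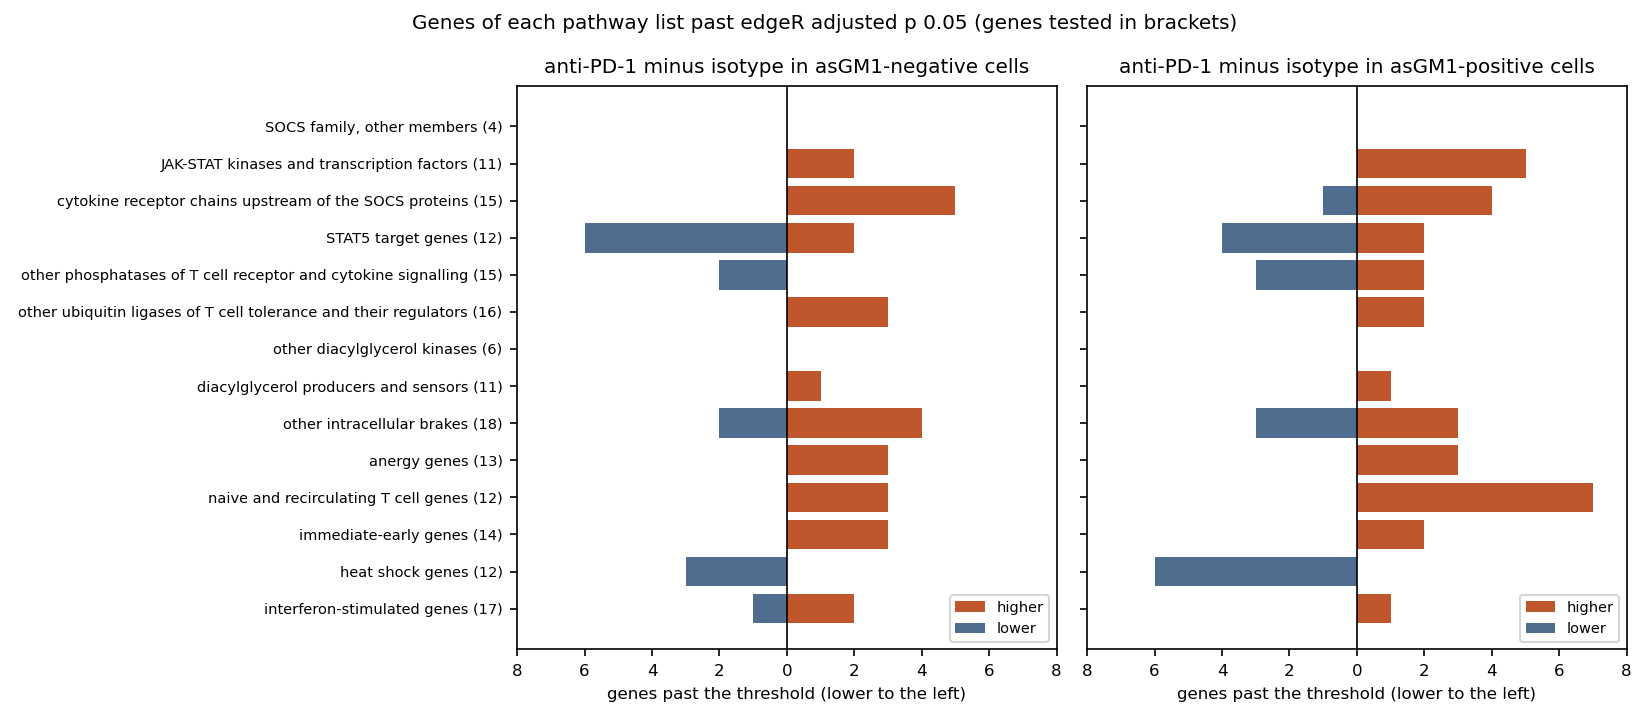
Number of genes of each pathway list that passed an edgeR adjusted p of 0.05 with anti-PD-1, higher to the right and lower to the left, in asGM1-negative cells (left) and asGM1-positive cells (right), with the number tested in brackets. STAT5 target genes have 6 and 4 calls on the lower side, and heat shock genes have 3 and 6 there and none on the higher side.

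Several other lists were followed with treatment, and their part in the members' changes was not tested. Of 12 heat shock genes, 0 rose and 3 fell in asGM1-negative and 6 fell in asGM1-positive cells; their summed level was 5182 to 6092 CPM in the 6 isotype libraries and 3422 to 4337 CPM in the 6 anti-PD-1 libraries. Of 12 genes of naive and recirculating T cells, 3 rose in asGM1-negative and 7 in asGM1-positive cells, with Lef1 up by 1.72 and 2.55 and Satb1 up by 1.19 and 1.67 on the log2 scale. In the population contrast the same list had 9 of 12 lower in asGM1-positive cells under isotype and 3 under anti-PD-1. Of 14 immediate-early genes, 3 and 2 rose and none fell. Of 17 interferon-stimulated genes, 2 and 1 rose and 1 and 0 fell. In asGM1-positive cells that count was near the share of all genes (6.73%).

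Markers of the sorted cells were present throughout. The 8 CD8 T cell markers summed to 9713 to 13665 CPM, and with anti-PD-1 none of them passed in asGM1-negative cells, while Cd8a (-0.48) and Cd3g (-0.57) fell in asGM1-positive cells. Of 13 macrophage and monocyte markers, 2 rose in asGM1-negative cells, and 2 rose and 1 fell in asGM1-positive cells; sums were 157 to 180 CPM (isotype) and 204 to 343 CPM (anti-PD-1) in asGM1-negative and 313 to 370.1 CPM and 280 to 496 CPM in asGM1-positive cells. Between populations 8 of the 13 were higher in asGM1-positive cells under isotype and 7 under anti-PD-1. Of 11 plasmacytoid dendritic cell markers, 9 and 6 were lower in asGM1-positive cells. With anti-PD-1, 1 of the 11 rose and 0 fell in each population. Their medians were -0.94 (asGM1-negative) and 0.16 (asGM1-positive) on the log2 scale. Siglech was at 46.2 to 71.3 CPM in isotype asGM1-negative libraries and 25.1 to 34.8 CPM in anti-PD-1 asGM1-negative libraries, against 0 to 0.489 CPM in asGM1-positive libraries. The 5 neutrophil markers summed to 3.25 to 7.74 CPM with isotype and 0.260 to 2.49 CPM with anti-PD-1, and the 5 tumour and epithelial markers to 2.54 to 7.52 CPM in all 12 libraries. The part of these cells in the members' values was not tested.

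Other genes followed single members closely over the 12 libraries. These likenesses are descriptions, since the libraries share 4 groups and 2 treatments; Pearson's r of log2 CPM is given first and r of the deviations from group means second, among 8777 genes searched. Cish was most like Qpct (0.986 and 0.924), Socs1 like Lta (0.975 and 0.650), Socs2 like Abi3 (0.964 and 0.872) and Socs3 like Kcnn4 (0.899 and 0.780). Ptpn22 was most like Cyth4 (0.988 and 0.926) and Ptpn2 like Apobr (0.951 and 0.843). Cblb was most like Ly75 (0.988 and 0.911), with Themis next (0.984 and 0.950), and Dgka like Nmrk1 (0.989 and 0.572). Dgkz was most like Ddx27 (0.916 and 0.924) and Rnf128 like Tmem101 (0.826 and 0.778).

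Some members share exon bases with a gene on the opposite strand in the GENCODE M21 annotation. The use of strand in counting was not stated, so reads of such pairs cannot be told apart. Cish shares 261 of its 6419 exon bases with Gm17040, which had 65 to 114 counts in isotype and 11 to 48 counts in anti-PD-1 libraries, and 479 with Gm17041, which had 0 to 1 counts. Dgka shares 105 of 4762 with Pmel (27 to 64 and 67 to 119 counts), and Dgkz shares 222 of 6270 with Gm9821 (11 to 31 and 12 to 49 counts). These counts were small beside those of the members. Socs1, Socs2, Socs3, Ptpn2, Ptpn22, Cblb and Rnf128 shared no exon bases with another gene there.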

How the data were processed

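RNA was extracted with TRIzol, and TruSeq mRNA and SMARTer ultra-low-input kits were named, per the labels' protocols. Per the submitters' processing notes, the tools were HISAT2 and StringTie and the genome build was mm39; the sources used here give no versions, annotation, strand use or account of how reads became counts. The authors deposited whole-number counts per gene for 12 libraries, replicates kept apart, with totals of 58.1 to 73.2 M per library.

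Counts were tested with edgeR 4.0.16 (limma 3.58.1, R 4.3.3): quasi-likelihood F test, 1 fit of 12 libraries with a mean per group, default expression filter by group, TMM factors of 0.970 to 1.04, Benjamini-Hochberg adjustment over 18657 genes, threshold 0.05. The biological coefficient of variation was 0.336, with 8 residual and a median of 3.71 prior degrees of freedom. Standard errors are the log2 fold change over the root of F, and 95% intervals are approximate and unadjusted. Intervals cover the spread between libraries; PCR copies are not independent molecules. On simulated counts for the isotype population contrast (18657 genes, 200 changed), 10.4% of genes changed 1.5-fold, 61.2% of those changed 2-fold and 84.8% of those changed 4-fold were recovered, with 7 false calls.

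Replicate numbers were checked by correlating deviations from group means. Libraries of the same number in both populations of 1 treatment correlated (r 0.187, 0.162 and 0.253 under isotype, 0.298, 0.121 and 0.168 under anti-PD-1), so numbers were taken to pair populations within a treatment, from the data and not from a label; across treatments r was -0.107 to 0.0129. Alternatives were DESeq2 1.42.0, limma voom, RLE scaling, no filter, a filter of 1 CPM in 3 libraries, 2 replicate blocks, the 6 libraries compared, and fits leaving out libraries. Counts summed over the 2 libraries of each pair (averaged treatment contrast) were added after seeing the data.

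The members, the 14 pathway lists and 10 marker lists (250 entries, all found) and the alternatives were chosen with earlier results of these data known. Text names all members, at most 4 passing genes per list and contrast (smallest p), the genes most like each member, and markers; Il2ra, Egr2, Egr3, Cbl, Itch, Nedd4, Hspa1a and Il6st are named as examples picked after their values were seen. Of the marker lists not described above, in the 4 contrasts within 1 treatment or population, CD4 and regulatory T cell genes had 1 and 2 of 6 lower in asGM1-positive cells (isotype, anti-PD-1) and none passed with treatment. Conventional dendritic cell genes had 2 and 2 of 6 lower in asGM1-positive cells, and with anti-PD-1 1 higher and 1 lower in asGM1-negative cells and 1 lower in asGM1-positive cells. B cell genes had 1 of 2 tested lower in isotype asGM1-positive cells, NK cell genes 1 of 4 lower with anti-PD-1 in asGM1-positive cells, and fibroblast and endothelial genes 1 of 6 higher with anti-PD-1 in each population; tumour and epithelial genes had none of 3.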

Additional observations from a re-analysis of the deposited data

How the results depend on the processing

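Of 1420 alternative member fold changes, 1340 kept direction and side of the threshold, 31 no longer passed, 12 newly passed and 37 changed sign. Counts of all genes called moved most. Under DESeq2 they were 798, 853 and 1419 for the population contrasts (isotype, anti-PD-1, average; 244, 295 and 670 in edgeR), 2756 and 2264 for treatment in asGM1-negative and asGM1-positive cells (1598 and 1255), and 136 for the interaction (0). With the replicate block of pairs within a treatment, population counts were 736, 891 and 1604 and the interaction 5. With only the 6 libraries compared, the isotype population count was 82 and the asGM1-positive treatment count 587. Without both anti-PD-1 replicate 2 libraries, counts were 16 and 294 (population under anti-PD-1 and average) and 828, 629 and 2170 (treatment in asGM1-negative, asGM1-positive, average, the last 3384 in edgeR). Leaving out 1 library gave 75 to 234, 53 to 368 and 403 to 827 for population, and 811 to 1776, 689 to 1287 and 2507 to 3501 for treatment. For members, the averaged population count of 0 became 1 with DESeq2, limma voom, the 1 CPM filter and the replicate block by number, and 2 with the pair block; leaving out 1 library gave 0 to 1. With the counts of each pair summed (chosen after seeing the data), averaged treatment calls were 1349 for all genes and 5 for members (8 in edgeR on 12 libraries), and Dgkz gave 0.000314. The sums ended the averaged treatment calls of Socs2, Socs3 and Ptpn2; blocks and sums changed no other member call. The cause of these shifts was not tested, beyond fewer libraries in the fits that left some out.

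Sign changes concerned 18 results, all with an adjusted p of at least 0.826 in edgeR. Over fits leaving out 1 library, the isotype population difference ran from -0.128 to 0.0308 (Cblb), -0.00967 to 0.159 (Cish), -0.0997 to 0.133 (Dgkz), -0.0820 to 0.306 (Rnf128), -0.0732 to 0.0458 (Socs1) and -0.175 to 0.0204 (Socs3) on the log2 scale. Under anti-PD-1 it ran from -0.122 to 0.0116 (Ptpn2), -0.0976 to 0.0208 (Ptpn22) and -0.274 to 0.0112 (Socs3). The interaction ran from -0.0903 to 0.0723 (Dgka), -0.0136 to 0.219 (Dgkz), -0.00828 to 0.580 (Rnf128), -0.433 to 0.0272 (Socs2) and -0.228 to 0.0844 (Socs3). Treatment effects ran from -0.0758 to 0.157 (Dgkz, asGM1-positive), -0.0690 to 0.0472 (Dgkz, average) and -0.334 to 0.234 (Rnf128, asGM1-positive). For Rnf128 in asGM1-positive cells limma voom gave -0.026, the replicate block by number -0.036 and the fit without both anti-PD-1 replicate 2 libraries -0.33, where Dgkz gave -0.00012 and the averaged population difference of Ptpn22 was -0.0058. The interaction of Dgka was 0.0015 without the filter and 0.0046 with the 1 CPM filter. Rnf128 had the fewest counts of the members.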
